A study of Bos taurus with 12 samples.

Results

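The transcripts described here code for integrins, tetraspanins and proteins of focal adhesions in bovine endometrium. Members were chosen by gene symbol alone. They are all probe sets whose symbol begins with ITGA, ITGB or TSPAN, apart from ITGA6 and ITGB4, together with 21 listed genes of focal adhesions, calpains, caveolins and classical tetraspanins. Of the 24,016 probe sets of the Affymetrix bovine array, 100 belonged to the set, for 59 genes. PXN and TNS3 were on the list, but no probe set carried either symbol. Because a symbol beginning with ITGB also fits ITGB1BP1, ITGB1BP2, ITGB3BP and ITGBL1, these genes are included although they are not integrin subunits.

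All samples came from estrus-synchronized Simmental heifers whose uterine wall was stroked with a small brush in the cycle before an embryo was transferred. The animals were grouped afterwards. In the high receptivity group (HR, labelled receptive) an embryo was detected after the transfer of an in vitro-produced blastocyst, and in the low receptivity group (LR, labelled non receptive) none was. The groups are HR7 and LR7 at day 7 of the estrous cycle and HR3 and LR3 at day 3. Each of the 12 arrays holds RNA pooled from 5 brush samples, with 3 pools per group, and which animals entered which pool is not given in the sources used here, so that a p-value measures the spread between pools. The study calls itself longitudinal and took brush samples on both days, so day 3 and day 7 pools of a group may hold the same heifers. The day tests treat these pools as independent. Values are deposited log2 signals, on which a difference of 1 is a change by a factor of 2.

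Integrins are receptors made of an alpha and a beta subunit. They hold cells to the extracellular matrix and, on leukocytes, to other cells. Inside the cell, talin, vinculin, tensin, zyxin and the alpha-actinins connect them to actin filaments at focal adhesions, where the kinases PTK2 and ILK signal and calpains cut the links again. Tetraspanins are small membrane proteins that gather integrins and proteases into patches of the cell surface, and caveolins coat the small invaginations called caveolae. In the uterus of ruminants, integrins at the luminal surface are known as receptors for osteopontin (SPP1), through which the conceptus attaches.

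A probe set entered the tests if 1 group or more had all 3 of its pools above the median of their arrays and if the 12 values had a standard deviation of 0.2 or more. Of the 100 member probe sets, 36 did so, for 31 genes, while 42 had too low a signal, 16 varied too little and 6 failed on both counts. Among those tested, 29 were above the median in all 4 groups. The other 7 (both of TNS1 and 1 each of BCAR3, CAV2, ITGA3, ITGB7 and TSPAN7) were below it on at least 1 array of some group, and counts over the tested probe sets are therefore descriptions of those that passed and not of all 100. Markers of uterine epithelium were present, since 10 of 11 with a probe set exceeded the array median in all pools, and the summed level of the 11 was between 14.65 and 15.15. Of the 11 endothelial markers with a probe set, 10 were below the array median on every array.

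Between day 7 and day 3, transcripts of a group of tetraspanins and of TNS1 were less abundant at day 7, while those of the leukocyte integrin pair ITGAD and ITGB2, both caveolins and TSPAN13 were more abundant. In HR, 14 of the 36 tested member probe sets passed an adjusted p of 0.05 in limma, against 41.5% of all 7,339 tested probe sets. At day 7, 6 of the 14 were higher (20.7% of all) and 8 lower (20.8% of all). In LR, 15 of the 36 passed, against 44.7% of all tested, with 7 higher (22.7% of all) and 8 lower (22% of all). The shares among the members are near these backgrounds. Of the 36, 12 passed in both groups, 5 higher and 7 lower, and none passed in opposite directions. The 12 include TSPAN7, tested through its day 3 level, and a dimmer CAV2 probe set, tested through its day 7 level. Only in HR the threshold was passed by TSPAN3 and the brightest CAV2 probe set, and only in LR by CAPNS1, ITGA7 and CD81. None of these differences between HR and LR passed a test of its own (adjusted p of 1 for every member). The median log2 difference over the tested members was 0.02 in HR and 0.07 in LR, beside -0.06 and -0.10 over all tested probe sets. The difference of the 5' from the 3' log2 signal of the added dap control was apart between days in LR, at -1.88 to -1.47 in LR7 against -3.13 to -2.66 in LR3, and overlapped in HR. That of bovine actin was -1.53, -1.01 and -0.62 in LR7 against -0.62, -0.10 and 0.55 in LR3, and the part of either in the member values was not tested.

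The largest difference of any member was that of TSPAN2, a tetraspanin best known from oligodendrocytes. Its log2 signal was 6.88, 7.82 and 7.52 in HR7, against 10.12, 9.88 and 10.14 in HR3. In LR it was 8.30, 7.26 and 7.85 in LR7, against 10.30, 10.18 and 9.62 in LR3. All day 7 pools were far below all day 3 pools. TSPAN2 fell by 2.64 in HR (SE 0.29, adjusted p = 9.05e-05) and by 2.23 in LR (SE 0.29, adjusted p = 0.000283), which is 6.23-fold and 4.69-fold lower at day 7. HR and LR overlapped within each day.

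TSPAN7, a tetraspanin best known from neurons, had 5.49, 6.48 and 6.33 in HR7, against 7.27, 7.46 and 7.91 in HR3. In LR it had 5.50, 6.53 and 5.81 in LR7, against 7.11, 7.56 and 7.07 in LR3. The days did not overlap in either group, and at day 7 every pool was below its array median, so the probe set was tested through its day 3 level. It was lower at day 7 by 1.45 in HR (SE 0.31) and by 1.30 in LR (SE 0.31), given as values only because the filter used the higher side. The summed level of 11 endothelial markers moved the same way, at 8.62 to 9.12 in HR7 and 8.74 to 9.24 in LR7, against 9.52 to 9.98 in HR3 and 9.48 to 9.68 in LR3. Only EMCN of that list was tested, also through its day 3 level, with a difference of -2.08 in HR and -1.70 in LR. PECAM1, CDH5 and VWF were below the median on all arrays. The part of this list in the result was not tested. In RNA from mixed tissue, fewer cells of a type and less RNA per cell cannot be told apart, here and in what follows.

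TSPAN6 was measured by a pair of probe sets, and both fell in both groups. The brighter one had 10.17, 10.06 and 10.39 in HR7 against 10.95, 10.95 and 11.03 in HR3, and 9.85, 9.51 and 10.25 in LR7 against 10.61, 10.77 and 10.85 in LR3. Every day 7 pool was below every day 3 pool. The difference was -0.77 in HR (adjusted p = 0.00598) and -0.87 in LR (adjusted p = 0.00321), and the second probe set gave -0.75 and -0.71. TSPAN3 fell by 0.55 in HR (adjusted p = 0.00776), with 10.96, 10.83 and 10.82 in HR7 against 11.28, 11.52 and 11.46 in HR3. In LR the same probe set had 10.78, 10.84 and 10.84 in LR7 against 10.92, 11.29 and 11 in LR3, also without overlap, with a difference of -0.25 that missed the threshold (95% interval -0.54 to 0.04, adjusted p = 0.134) and passed it after quantile normalization (-0.32, adjusted p = 0.0479). TSPAN15, one of the tetraspanins that escort the protease ADAM10 to the cell surface, fell by 0.40 in HR (adjusted p = 0.0404) and by 0.56 in LR (adjusted p = 0.0104). Its call in HR was lost without HR7 pool 1, 2 or 3, LR7 pool 1 or HR3 pool 2 or 3 (-0.43 to -0.32, adjusted p up to 0.133), with the pool number as a block (adjusted p = 0.0625), without the presence filter (adjusted p = 0.106) and after centring on array medians (-0.36, adjusted p = 0.0617).

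TSPAN13 went the other way and was 0.57 higher in HR7 (adjusted p = 0.0071) and 0.44 higher in LR7 (adjusted p = 0.0213). It had 11.18, 11.26 and 11.37 in HR7, against 10.77, 10.80 and 10.54 in HR3. In LR it had 11.38, 11.31 and 11.36 in LR7, against 10.95, 10.71 and 11.07 in LR3. The day 7 pools were thus all above the day 3 pools. The LR call was lost without LR7 pool 1 (0.43, adjusted p = 0.0612) or LR3 pool 2 (0.34, adjusted p = 0.0735). CD81, which forms complexes with integrins on many cells, had 12.22, 12.17 and 12.42 in LR7 against 11.44, 11.94 and 11.99 in LR3, a difference of 0.48 (adjusted p = 0.0401). It was lost without HR7 pool 3, LR7 pool 1, 2 or 3, HR3 pool 3 or LR3 pool 1 (down to 0.31, adjusted p = 0.15, without the last), and in HR the difference was 0.01. Over the family, 10 of the 22 tetraspanin genes could be tested by their brightest probe set. In HR 1 rose and 5 fell, and in LR 2 rose and 4 fell, beside the backgrounds of 41.5% and 44.7% called in either direction over all tested probe sets. The falls in both groups include TSPAN7, which was tested through its day 3 level and is given as values only.

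**Figure D1:**
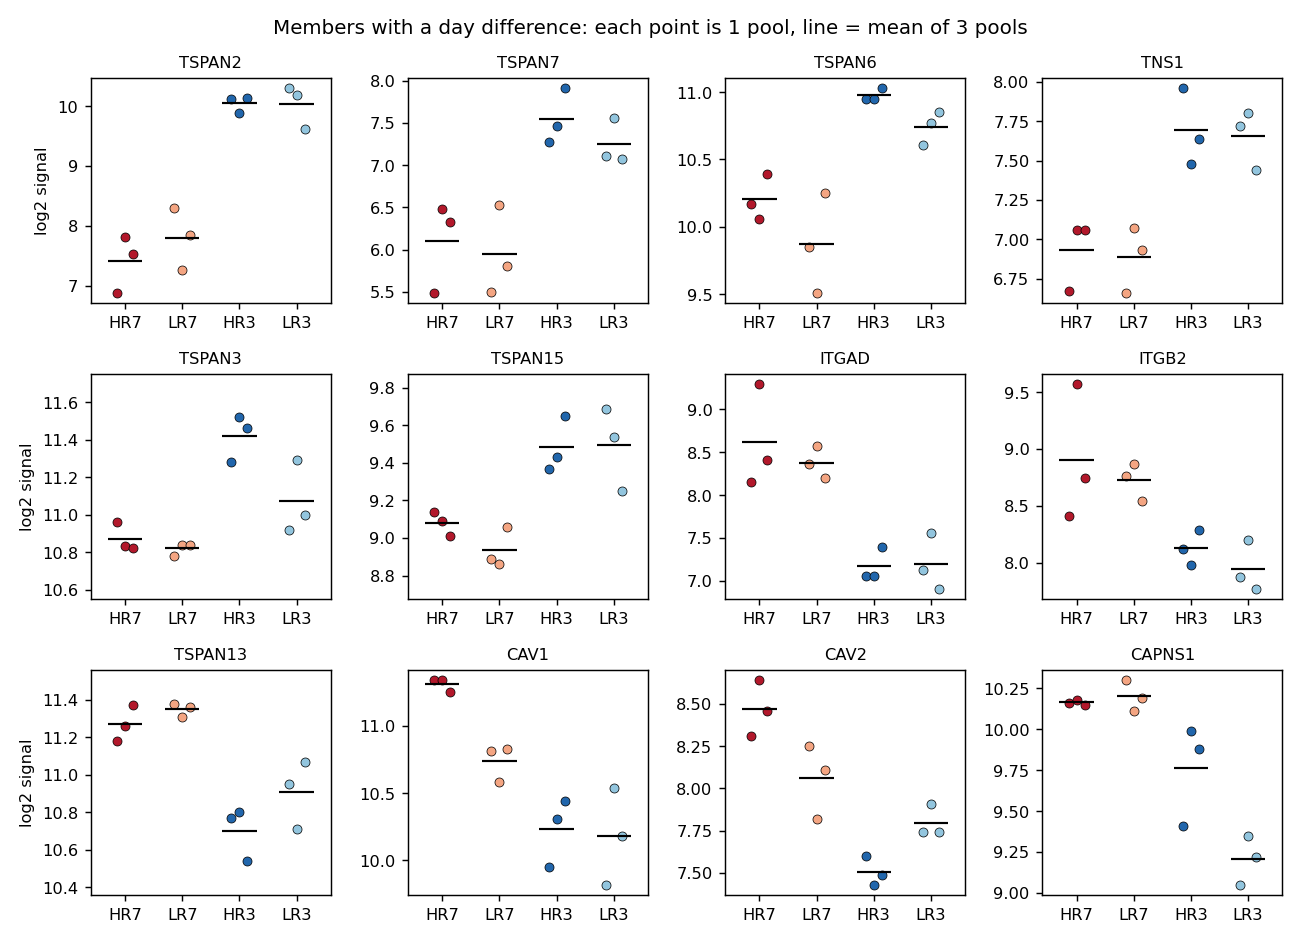
Log2 signal (vertical axis) of 12 member genes in the 3 pools of HR7, LR7, HR3 and LR3 (horizontal axis); each point is 1 pool and each line the mean of 3. TSPAN2 shows the widest gap, with day 7 pools between 6.88 and 8.30 and day 3 pools between 9.62 and 10.30, whereas CAPNS1 is lowest in LR3, at 9.05 to 9.35.

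Among the tested integrin probe sets, ITGAD rose most. It codes for the alpha D subunit, which pairs with the beta 2 subunit ITGB2 on macrophages and other leukocytes. ITGAD had 8.15, 9.29 and 8.41 in HR7 against 7.06, 7.06 and 7.39 in HR3, a difference of 1.45 (SE 0.26, adjusted p = 0.00195). It had 8.36, 8.57 and 8.20 in LR7 against 7.13, 7.56 and 6.91 in LR3, a difference of 1.18 (SE 0.26, adjusted p = 0.00553). In both groups all day 7 pools were above all day 3 pools. A second ITGAD probe set was below the median on all arrays, at 3.47 to 4.77.

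ITGB2 had 8.41, 9.57 and 8.74 in HR7 against 8.12, 7.98 and 8.29 in HR3, and 8.76, 8.87 and 8.54 in LR7 against 7.87, 8.20 and 7.77 in LR3. The days did not overlap, and the difference was 0.78 in each group (adjusted p = 0.0267 in HR and 0.0256 in LR). The HR value rests in part on HR7 pool 2, without which it was 0.45 (adjusted p = 0.0935), and the call was also lost without HR3 pool 1 or 2. In LR it was lost without LR7 pool 1 or 2 or LR3 pool 1 or 3, with differences of 0.69 to 0.76. Both calls were also lost without the presence filter (adjusted p = 0.0811 in HR and 0.0784 in LR) and in an ordinary linear model (0.0558 and 0.0535), and the HR call with only the compared groups in the fit (0.0508). HR7 pool 2 was the highest pool for ITGAD, for ITGB2, for the neutrophil list and for the macrophage list.

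Some leukocyte markers moved with these 2 integrins, while those of T and NK cells went the other way, as given with ITGAE. Of 3 tested neutrophil markers, S100A8 and S100A12 rose in both groups, by 4.82 and 5.10 in HR and by 2.91 and 3.20 in LR. S100A9 was tested through its day 7 level alone, and was higher at day 7 by 2.31 in HR and 1.15 in LR, given as values only. The summed level of the 8 neutrophil markers was 14.51 to 14.84 in HR7 and 14.20 to 14.44 in LR7, against 13.99 to 14.02 in HR3 and 13.86 to 14.02 in LR3. However, the granule proteins MPO and ELANE were below the median on all arrays, and LTF, which uterine epithelium also makes, was between 13.80 and 14.01 throughout. Of 8 macrophage markers, CD14 and CD68 rose in both groups and C1QC fell in HR, while 4 lay below 0 in HR and 5 in LR. The macrophage sum overlapped between days (11.19 to 12.33 in HR7, 11.27 to 11.44 in LR7, 11.07 to 11.64 in HR3 and 10.89 to 11.27 in LR3). Over all tested probe sets, 20.7% rose in HR and 22.7% in LR. The part of the marked cells in the rise of ITGAD and ITGB2 was not tested. The other alpha partners of ITGB2 on the array, ITGAL and ITGAM, were below the median in every pool, at up to 5.75 for ITGAL and up to 4.19 for ITGAM.

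ITGAE, the alpha E subunit by which T cells in epithelium bind E-cadherin, lay lower at day 7. It had 8.03, 7.82 and 8.32 in HR7 against 8.48, 8.36 and 8.49 in HR3, and 7.93, 7.99 and 8.08 in LR7 against 8.33, 8.31 and 8.56 in LR3. The days did not overlap, but the differences of -0.39 (adjusted p = 0.04998) and -0.40 (adjusted p = 0.0417) barely passed. Leaving out 1 pool ended the HR call in 10 of 12 cases (all but HR7 pool 3 and LR3 pool 3, -0.43 to -0.27) and the LR call in 9 of 12 (all but HR7 pool 2, HR7 pool 3 and HR3 pool 1, -0.45 to -0.32). Of 7 tested T and NK cell markers, 3 fell in HR (CD2, CD247 and NKG7) and 3 in LR (CD2, CD247 and LCK). All 7 differences were below 0 in both. However, CD2, CD3D, CD3E, CD3G and NKG7 entered the tests only through day 3 groups, the higher side. Their direction, and the calls of CD2 and NKG7 with it, are given as values only. Over all tested probe sets, 20.8% fell in HR and 22% in LR. The summed level of the 13 T and NK cell markers with a probe set was 9.71 to 10.36 in HR7 and 9.75 to 10.64 in LR7. It was 10.66 to 10.81 in HR3 and 10.55 to 11.11 in LR3, and its part in the ITGAE values was not tested. ITGB7, the beta partner of ITGAE, differed by -0.24 in HR and -0.20 in LR, with neither past the threshold (adjusted p = 0.408 and 0.483).

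**Figure D2:**
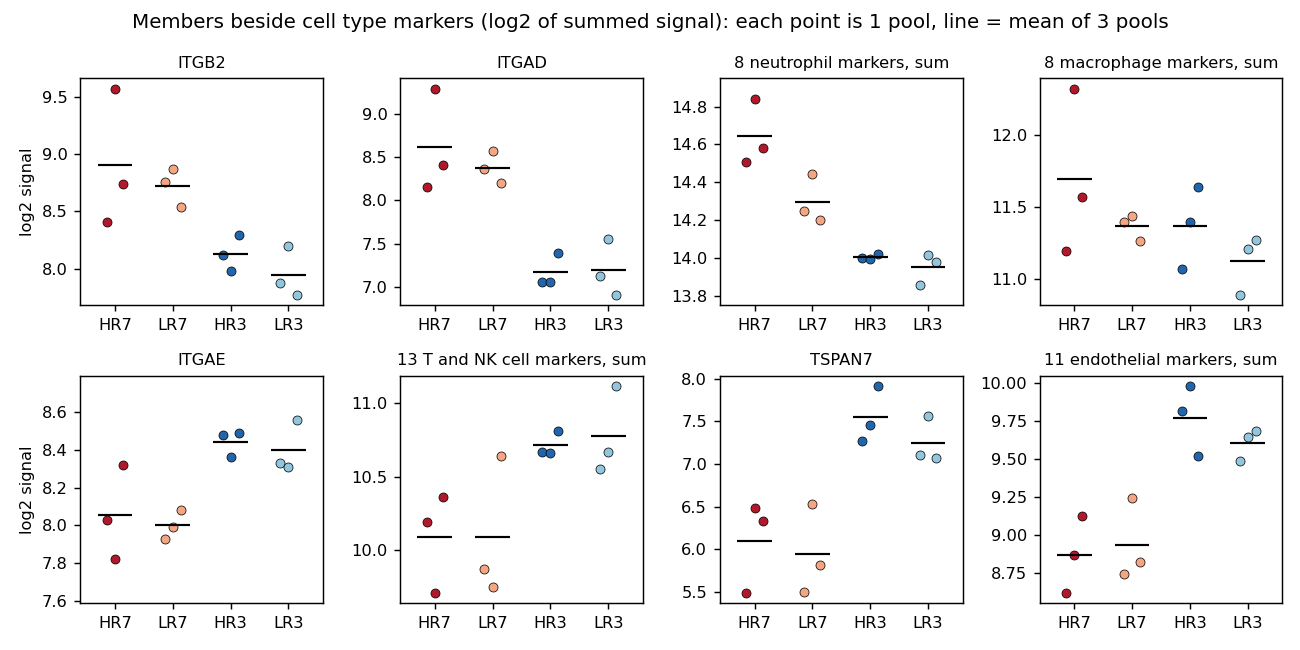
Log2 signal of ITGB2, ITGAD, ITGAE and TSPAN7 and log2 of the summed signal of 4 lists of cell type markers (vertical axes) in HR7, LR7, HR3 and LR3; each point is 1 pool and each line the mean of 3. HR7 pool 2 is the highest for ITGB2 (9.57) and ITGAD (9.29) and for the neutrophil and macrophage sums (14.84 and 12.33).

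ITGA7, the alpha subunit of a laminin receptor, fell by 0.82 in LR (SE 0.27, adjusted p = 0.0276), with 8.41, 7.86 and 8.14 in LR7 against 9.47, 9.09 and 8.31 in LR3. The groups overlap, since LR3 pool 3 was below LR7 pool 1. The call was lost without LR7 pool 2 or 3 or LR3 pool 1 or 2 (-0.56, adjusted p = 0.105, without LR3 pool 1), and the mean over its 3 probe sets gave -0.31 (adjusted p = 0.132). In HR it had 9.21, 8.87 and 8.68 in HR7 against 9.22, 8.78 and 8.91 in HR3, which overlap (difference -0.05, 95% interval -0.63 to 0.53). The beta subunit ITGB3 had a probe set at 9.23 to 10.42 in the day 7 pools and 8.74 to 9.68 in the day 3 pools (0.53 in HR and 0.52 in LR, adjusted p = 0.172 and 0.17). The other 3 probe sets with this symbol were below the median in every pool. Counted by the brightest probe set, 6 of 12 alpha subunits were tested, of which 1 rose and 1 fell in HR and 1 rose and 2 fell in LR, beside the same 41.5% and 44.7%. Of 6 beta subunits 3 were tested, and ITGB2 alone passed.

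Both caveolins were more abundant at day 7. CAV1 had 11.34, 11.34 and 11.25 in HR7 against 9.95, 10.31 and 10.44 in HR3, a difference of 1.08 (SE 0.19, adjusted p = 0.00144). In LR it had 10.81, 10.58 and 10.83 in LR7 against 9.82, 10.54 and 10.18 in LR3, a difference of 0.56 (SE 0.19, adjusted p = 0.0299). The days were separate in both groups, in LR by only 0.04 between the nearest pools. The LR call was lost without LR7 pool 1 or 3 or LR3 pool 1 or 3 (0.38, adjusted p = 0.112, without LR3 pool 1), the mean over both CAV1 probe sets gave 0.90, and the HR call held without any 1 pool (0.94 to 1.18).

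CAV2, the partner of CAV1 in the caveolar coat, was measured by 2 tested probe sets. The brighter one had 8.31, 8.64 and 8.46 in HR7 against 7.60, 7.43 and 7.49 in HR3 (0.96, adjusted p = 0.000651), and 8.25, 7.82 and 8.11 in LR7 against 7.74, 7.91 and 7.74 in LR3 (0.26, 95% interval -0.05 to 0.58, adjusted p = 0.147). The days were apart in HR and overlapped in LR. The other probe set was below the median in all day 3 pools but LR3 pool 2 and so was tested through its day 7 level. It was higher at day 7 by 0.95 in HR and by 0.79 in LR, given as values only. The LR difference was 0.63 without LR7 pool 1 and 0.52 without LR3 pool 1. The summed signal of both caveolins was 11.44 to 11.55 in HR7 and 10.78 to 11.04 in LR7, against 10.21 to 10.62 in HR3 and 10.13 to 10.76 in LR3. Endothelium, a tissue rich in caveolae, had a lower summed marker level at day 7, as given with TSPAN7. The summed level of 8 markers of basal and squamous epithelium was higher at day 7, at 11.59 to 12.16 in HR7 and 9.87 to 10.07 in LR7 against 8.93 to 9.30 in HR3 and 8.89 to 9.21 in LR3. Of its 4 tested genes 4 rose in HR and 3 in LR. However, KRT5, PKP1 and ITGB4 of these entered the tests only through day 7 groups, the higher side, and are given as values only. Of 9 smooth muscle markers, 5 (DES, MYH11 and TAGLN among them) were below the median in every pool and only SMTN was tested. SMTN entered through its day 7 level alone, and was higher at day 7 by 1.76 in HR and 2.36 in LR, given as values only. The summed level of the 9 smooth muscle markers overlapped between days (9.34 to 9.79 in HR7, 9.21 to 9.73 in LR7, 9.09 to 9.49 in HR3 and 8.75 to 9.43 in LR3). Over all tested probe sets, 20.7% rose in HR and 22.7% in LR. The part of endothelial, basal and squamous epithelial and smooth muscle cells in the caveolin values was not tested.

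CAPNS1, the small regulatory subunit shared by calpains 1 and 2, had 10.16, 10.18 and 10.15 in HR7 and 10.30, 10.11 and 10.19 in LR7. It had 9.41, 9.99 and 9.88 in HR3 and 9.05, 9.35 and 9.22 in LR3, so that the day 7 pools were alike and the LR3 pools lowest. The day difference was 0.40 in HR (SE 0.16, adjusted p = 0.057) and 0.99 in LR (SE 0.16, adjusted p = 0.000911). The HR value passed without HR3 pool 2 (0.52, adjusted p = 0.0427) and after the arrays were centred on their medians (0.45, adjusted p = 0.0284). A dimmer CAPNS1 probe set differed by 0.21 in HR and 0.30 in LR, with neither past the threshold, though the LR difference passed without LR3 pool 3 (0.46, adjusted p = 0.024). The catalytic subunits CAPN1 (0.19 in HR and 0.38 in LR) and CAPN2 (0.32 and 0.16) did not pass.

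Within the focal adhesion scaffold, TNS1, a tensin that links integrins to actin, was less abundant at day 7. It had 6.67, 7.06 and 7.06 in HR7 against 7.96, 7.48 and 7.64 in HR3 (-0.76, SE 0.18, adjusted p = 0.00666). In LR it had 6.66, 7.07 and 6.93 in LR7 against 7.72, 7.80 and 7.44 in LR3 (-0.77, SE 0.18, adjusted p = 0.00648). No day 7 pool reached a day 3 pool. A second TNS1 probe set, tested through 1 group alone, did not move with it, at 6.37 to 6.98 in the day 7 pools and 6.51 to 7.15 in the day 3 pools (0.03 in HR, -0.12 in LR), and the mean over both gave -0.37 in HR (adjusted p = 0.0713). VCL, which anchors talin to actin, had 9.04, 9.21 and 9.06 in HR7 against 8.63, 9.02 and 9.06 in HR3, and 9.02, 8.90 and 8.87 in LR7 against 8.53, 8.84 and 8.37 in LR3. The days overlapped in HR (0.20) and not in LR (0.35, adjusted p = 0.0856), where the difference passed without LR3 pool 2 (0.48, adjusted p = 0.0398). ZYX, which collects at stretched adhesions, had 7.50, 7.20 and 7.24 in HR7 against 7.04, 7.60 and 6.93 in HR3, and 7.53, 7.03 and 7.38 in LR7 against 6.69, 6.92 and 7.04 in LR3. Its days overlapped in both groups (0.12 in HR and 0.43 in LR, adjusted p = 0.62 and 0.0889). The BCAR3 probe set that entered the tests did so only through HR7, where it was highest, so its day difference of 0.46 in HR is given as a value only, with 7.10, 7.40 and 6.79 in HR7 against 6.49 to 6.71 in HR3, which do not overlap.

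**Figure D3:**
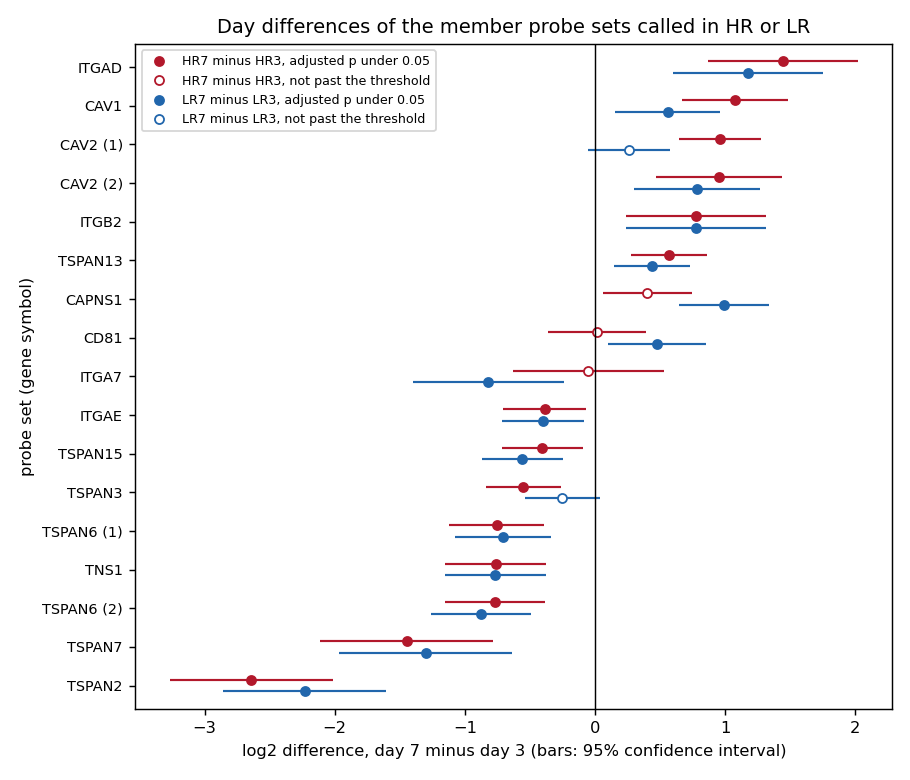
Log2 difference of day 7 minus day 3 (horizontal axis) with its 95% confidence interval for the 17 member probe sets that passed in HR or LR (vertical axis); red is HR and blue LR, and filled points passed an adjusted p of 0.05. The points run between -2.64 (TSPAN2, HR) and 1.45 (ITGAD, HR), and the intervals of HR and LR overlap for most probe sets.

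At day 3, the comparison of HR with LR asks which transcripts differ in the cycle before a later transfer succeeds or fails. None of the 36 member probe sets passed in limma, as none of all 7,339 did (0%). At an unadjusted p under 0.05, 6 member probe sets differed, all higher in HR3, against 7.06% of all tested (4.21% higher). These were both probe sets of ITGAV, CAPNS1, TSPAN3, CD81 and 1 of TSPAN6. The groups did not overlap for 7 members, 6 of them higher in HR3, against 10.7% of all tested (5.64% higher). The median over the tested members was 0.04, beside 0.01 over all tested probe sets. The study placed ITGAV, TSPAN3, TSPAN5, TSPAN6, CAPNS1 and BCAR3 on an integrin signaling list that it chose on these same arrays, so their direction here is not independent evidence.

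ITGAV, the alpha V subunit of receptors for vitronectin and osteopontin, had the lowest p of the members. It had 9.83, 9.95 and 10 in HR3, against 9.27, 9.48 and 9.18 in LR3. The groups were well apart, and the difference was 0.62 (95% interval 0.30 to 0.93, unadjusted p = 0.00106, adjusted p = 0.647, and 0.158 to 0.999 over the alternatives). The second probe set had 7.15, 7.73 and 7.91 in HR3 against 6.69, 7.09 and 6.82 in LR3, also apart, with a difference of 0.73 (adjusted p = 0.668). With any 1 pool left out the first difference was between 0.55 and 0.70. At day 7 the same probe set had 9.81, 9.67 and 9.75 in HR7 against 9.32, 9.36 and 9.74 in LR7, where LR7 pool 3 reached the HR7 pools (0.27, adjusted p = 0.997).

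CAPNS1, with the values given above, was 0.55 higher in HR3 (95% interval 0.21 to 0.90, unadjusted p = 0.00426, adjusted p = 0.668), without overlap, and between 0.44 and 0.73 when a pool was left out. Its dimmer probe set gave 0.03 and the mean over both 0.29. TSPAN3 was 0.35 higher in HR3 (unadjusted p = 0.0215), with HR3 pool 1 just below LR3 pool 2. The dimmer TSPAN6 probe set had 9.82, 10.04 and 10.09 in HR3 against 9.57, 9.69 and 9.51 in LR3 (0.39, unadjusted p = 0.0372), and the brighter one, also without overlap, gave 0.23 (unadjusted p = 0.21). CD81 had 12.01, 12.36 and 12.25 in HR3 against 11.44, 11.94 and 11.99 in LR3 (0.42, unadjusted p = 0.0327). The HR3 pools were all above the LR3 pools, the nearest by 0.02. After adjustment none of these passed.

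TSPAN5, another escort of ADAM10, was too dim to be tested. It had 6.95, 6.85 and 6.61 in HR3 against 5.71, 6.42 and 6.21 in LR3, so that the groups did not overlap, and only HR3 pools 1 and 2 exceeded their array median. The 3 probe sets of BCAR3, an adaptor that binds the focal adhesion docking protein BCAR1, did not give the same direction. The brightest, left out for its low spread, had 8.21, 7.93 and 7.87 in HR3 against 8.05, 8.15 and 8.09 in LR3, which overlap. The tested one differed by -0.11 (adjusted p = 0.908). The dimmest, below the median in all pools, had 6.02, 6.30 and 6.37 in HR3 against 5.73, 5.99 and 5.79 in LR3, without overlap. VCL differed by 0.32 (adjusted p = 0.691) and ZYX by 0.31 (adjusted p = 0.749), the pools given above overlapping for both, and the mean over the VCL probe sets gave -0.055. CAV1 differed by 0.05 (adjusted p = 0.959), and by -0.13 without LR3 pool 1. Its dimmer probe set, below the median in every pool, gave 0.65. The brightest ITGB5 probe set had 13.25, 13.55 and 13.61 in HR3 against 13.45, 13.55 and 13.45 in LR3, which overlap.

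On the side of LR3, the members with the lowest p were CAV2, TSPAN13 and TSPAN32. CAV2 differed by -0.29 (unadjusted p = 0.0687, adjusted p = 0.691), with no overlap of the pools given above, while its second probe set gave 0.02. TSPAN13 differed by -0.21 (adjusted p = 0.752). TSPAN32, a tetraspanin of blood cells, had 7.26, 6.94 and 7.03 in HR3 against 6.94, 7.20 and 7.77 in LR3 (-0.23, adjusted p = 0.823). The difference rests on LR3 pool 3, without which it was 0.0067.

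Several other measures are given for this comparison. Of 11 tested stroma markers 10 were above 0 and none passed, with a median of 0.60. The summed level of the 15 with a probe set was 14.03 to 14.37 in HR3 against 13.65 to 14.05 in LR3, which overlap. All 13 tested matrix ligands of integrins lay above 0 (median 0.48, none past the threshold), among them fibronectin (FN1, 0.47), tenascin (TNC, 0.70) and the collagen IV chain COL4A1 (0.65). COL1A1, which stands on both lists, entered the tests through HR3 alone, so its place in these counts was set in part by the filter. The 5' minus 3' log2 signal of the added dap control transcript was -2.74, -1.39 and -1.32 in HR3 against -3.13, -2.66 and -2.86 in LR3. That of bovine GAPDH was -0.65, -0.50 and -0.66 in HR3 against -0.92, -0.65 and -0.88 in LR3. That of the added thr control was -3.56, -2.56 and -1.97 in HR3 against -3.52, -3.54 and -4.35 in LR3. All 3 were nearer to 0 on average in HR3, with overlap, and that of bovine actin overlapped as well (0.17, -0.22 and -0.86 in HR3, -0.62, -0.10 and 0.55 in LR3). The part of these in the member values was not tested.

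**Figure D4:**
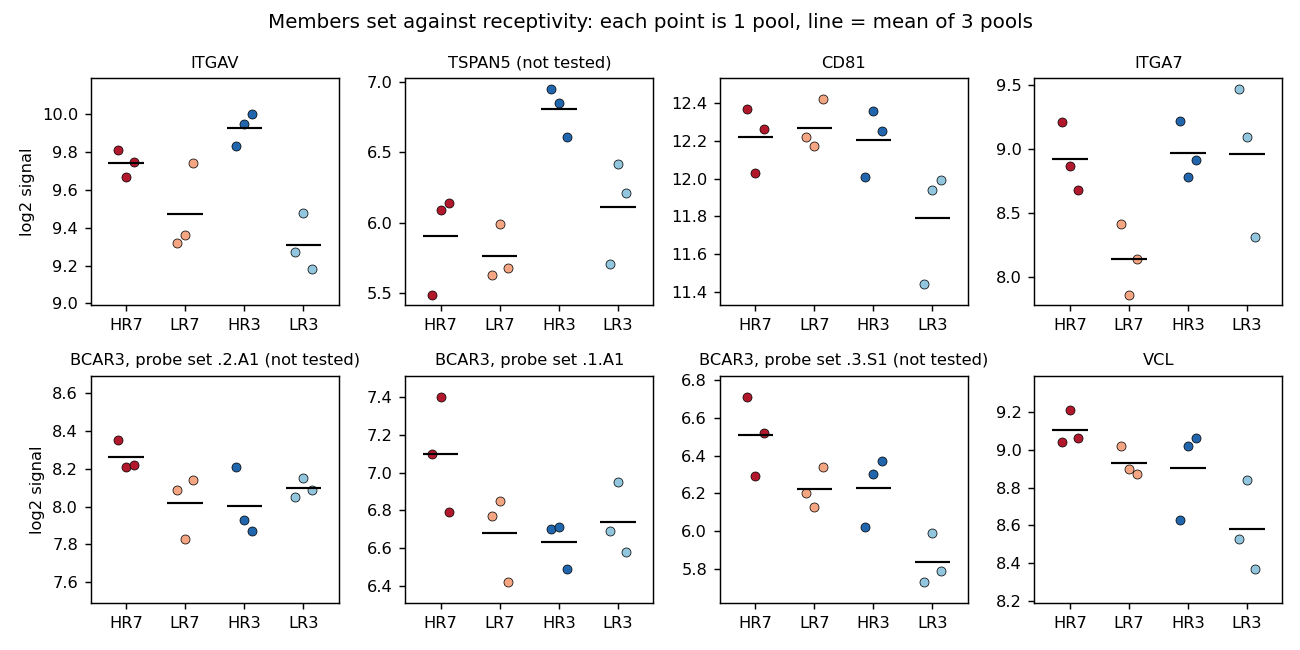
Log2 signal (vertical axis) of ITGAV, TSPAN5, CD81, ITGA7, VCL and the 3 probe sets of BCAR3 in HR7, LR7, HR3 and LR3 (horizontal axis); each point is 1 pool and each line the mean of 3. ITGAV in HR3 (9.83 to 10) is apart from LR3 (9.18 to 9.48), and ITGA7 in LR7 (7.86 to 8.41) is below HR7 (8.68 to 9.21).

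At day 7, none of the 36 member probe sets passed between HR and LR, where 5 of all 7,339 did (0.0681%). At an unadjusted p under 0.05, 4 member probe sets differed, all higher in HR7, against 4.51% of all tested (2.73% higher). They include the BCAR3 probe set that entered the tests through HR7 alone. The groups did not overlap for 6, all higher in HR7, against 8.94% of all tested (4.93% higher). Of the 36, 26 lay above 0, beside 49.1% of all tested probe sets, with a median of 0.14 beside 0.00. The basal and squamous epithelial markers were apart between HR7 and LR7, with the summed levels given above, and KRT15 of their 4 tested genes passed (3.08, adjusted p = 0.0013). The neutrophil sum was apart too, as given above, with all 3 tested markers higher in HR7 and none past the threshold. So was that of uterine epithelium, at 14.89 to 15.15 in HR7 against 14.65 to 14.85 in LR7, with all 7 tested markers above 0 and none past the threshold. The part of these lists in the member values was not tested.

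CAV1 had the lowest p. Its 3 HR7 pools, at 11.25 to 11.34, were all above the LR7 pools, at 10.58 to 10.83. The difference was 0.57 (95% interval 0.16 to 0.98, unadjusted p = 0.00981, adjusted p = 0.673, and 0.522 to 1 over the alternatives). CAV2 was higher by 0.41 (95% interval 0.09 to 0.73, unadjusted p = 0.0152, adjusted p = 0.755), with HR7 pool 1 just above LR7 pool 1, and by 0.18 on its second probe set. ITGA7 was higher by 0.78 (95% interval 0.20 to 1.36, unadjusted p = 0.0125, adjusted p = 0.731), with its HR7 and LR7 pools apart. The other 2 ITGA7 probe sets, below the median in every pool, gave 0.00 and 0.35, and the mean over the 3 gave 0.38. The tested BCAR3 probe set, the fourth of the members under an unadjusted 0.05, entered the tests through HR7 alone and is given as values only. It had 7.10, 7.40 and 6.79 in HR7 against 6.77, 6.85 and 6.42 in LR7, which overlap, and the brightest one had 8.35, 8.21 and 8.22 in HR7 against 8.09, 7.83 and 8.14 in LR7, which do not.

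The remaining members without overlap at day 7 were the dimmer probe set of ITGB5, TSPAN1 and VCL. ITGB5, the beta 5 partner of ITGAV, had 10.19, 10.18 and 9.98 in HR7 against 9.89, 9.79 and 9.58 in LR7 on that probe set (0.36, adjusted p = 0.997). Its brightest probe set varied too little to be tested, at 13.41 to 13.55 in HR7 and 13.44 to 13.50 in LR7. TSPAN1 was higher by 0.33 and VCL by 0.17, both at an adjusted p of 0.997. On the side of LR7, TSPAN2 (-0.40), CAPN1 (-0.20) and TSPAN13 (-0.08) had the lowest p, each at an adjusted p of 0.997. CAPN1, a calpain that cuts talin, had 7.98, 8.47 and 8.30 in HR7 against 8.64, 8.30 and 8.40 in LR7, and all 3 genes overlapped. TSPAN5 also overlapped, at 5.49, 6.09 and 6.14 in HR7 against 5.63, 5.99 and 5.68 in LR7. ZYX differed by 0.00 (95% interval -0.43 to 0.43).

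**Figure D5:**
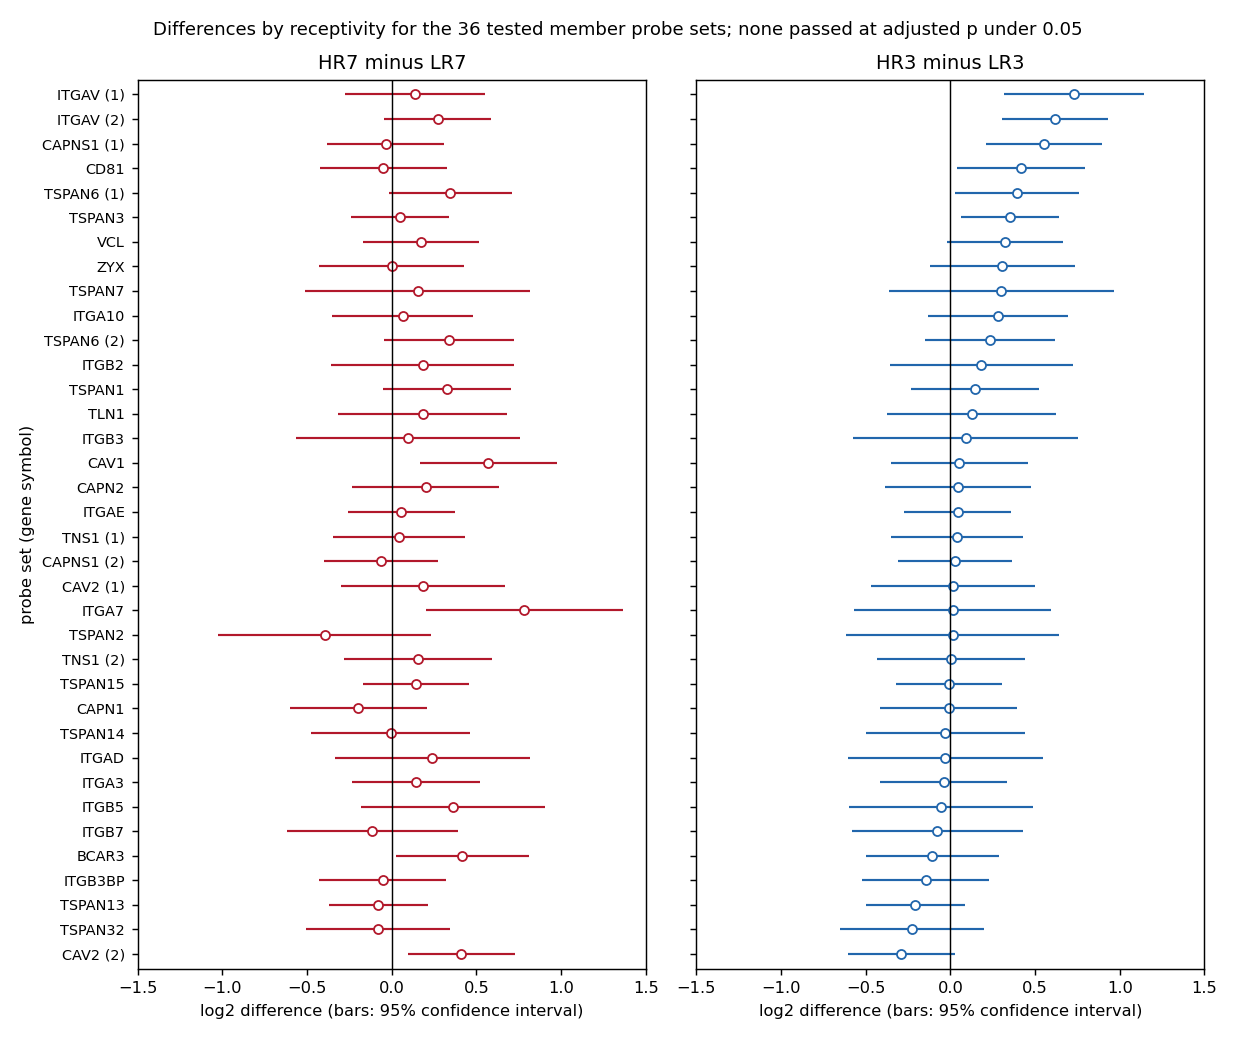
Log2 difference of HR minus LR (horizontal axes) with its 95% confidence interval for the 36 tested member probe sets (vertical axis) at day 7 on the left and day 3 on the right; a gene with a pair of tested probe sets has a number after its symbol. No point passed an adjusted p of 0.05, and the ends of the scale at day 3 are ITGAV (0.73) and CAV2 (-0.29).

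Whether the day difference itself differed between HR and LR was tested as an interaction. No member passed, nor did any of the 7,339 probe sets (0%), and 3 members had an unadjusted p under 0.05, against 3.9% of all tested. They were CAV2 (0.70, 95% interval 0.25 to 1.15, unadjusted p = 0.00512), CAPNS1 (-0.59, 95% interval -1.08 to -0.10, unadjusted p = 0.0212) and the dimmer probe set of ITGAV (-0.59, unadjusted p = 0.0471), each with an adjusted p of 1. The day difference of CAV2 was 0.96 in HR beside 0.26 in LR, and that of CAPNS1 0.40 in HR beside 0.99 in LR. The second CAV2 probe set gave an interaction of 0.17 and the second CAPNS1 probe set -0.09, so the contrast was not seen on both probe sets of either gene. For the dimmer ITGAV probe set the HR day difference was -0.27, and it passed without HR3 pool 1 (-0.49, adjusted p = 0.039). ITGA7 followed with 0.77 (unadjusted p = 0.064, and 0.27 as the mean over its probe sets). CAV1 had 0.52 (unadjusted p = 0.073), and -0.25 on its dimmer probe set, which was below the median in every pool. TSPAN2 had -0.41 (95% interval -1.30 to 0.48).

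Many members were measured above the array median, most of them well above it, and hardly varied. BCAR1 lay near the median, and below it in LR3 pool 2. The brightest probe set of ITGB5 was between 13.25 and 13.61 in all 12 pools, CD9 between 13.05 and 13.57, CD63 between 12.47 and 12.75 and CD151 between 11.18 and 11.72. ITGB1, a beta subunit shared by many integrins, was between 12.02 and 12.46. Of the scaffold, ACTN1 (10.60 to 11.07), ACTN4 (10.20 to 10.81), the kinases PTK2 (9.73 to 10.08) and ILK (9.22 to 9.67), TLN1 (8.61 to 9.16) and BCAR1 (6.67 to 6.97) had a standard deviation under 0.2 over the 12 arrays and were not tested. So did ITGB1BP1 (8.44 to 8.86), which binds the tail of ITGB1, TSPAN31 (9.09 to 9.59) and TSPAN4 (7.06 to 7.69). Such values say how small the measured spread was and not that the transcripts were equal.

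At the other end, the brightest probe sets of ITGA2B, ITGA4, ITGA5, ITGAL, ITGAM, ITGB6, ITGB1BP2, ITGBL1, TSPAN11, TSPAN17, TSPAN18, TSPAN19 and TSPAN33 were below the array median in every pool. ITGA2 was above it in 3 pools, TSPAN12 and TSPAN5 in 2. Listed at 0 on at least 1 array were 8 member probe sets. Of the remaining tested members, ITGA3, ITGA10, ITGB3BP, TLN1 (its dimmer probe set), TSPAN1 and TSPAN14 did not pass in any comparison, with differences between -0.34 and 0.33. The dimmer ITGB5 probe set differed by -0.63 between days in LR (adjusted p = 0.0559) and passed without LR3 pool 2 (-0.83, adjusted p = 0.032) or LR3 pool 3.

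Other genes of the pathway were counted from lists chosen by function. Over all tested probe sets, 41.5% passed between days in HR (20.7% higher and 20.8% lower). In LR 44.7% passed (22.7% higher and 22% lower). Of 31 further adhesion complex genes 16 had a probe set and 8 were tested. In HR, FERMT3 (0.42) and TNS4 (1.18) rose and FLNA (-0.74) and NEDD9 (-1.24) fell, and in LR KANK2 (0.85) rose and NEDD9 (-0.93) fell. FERMT3 is the kindlin of blood cells and NEDD9 a relative of BCAR1. Of 45 integrin signaling genes 32 had a probe set and 11 were tested. In HR 5 rose, namely GSN, MAP2K1, PAK6, PIK3CA and ROCK2, and RHOB (-0.48) fell, and in LR 5 rose, namely GSN, MAP2K1, MAP2K2, PAK6 and PFN1 (0.63), and none fell. Medians were 0.22 in both groups. The study put PAK6, MAP2K1 and RHOB on its own integrin signaling list from these arrays, so these counts are not independent of it.

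Of the 25 matrix ligands of integrins, 18 had a probe set and 13 were tested. In each group 2 rose and 7 fell at day 7, with medians of -0.83 in HR and -0.69 in LR. Over all tested probe sets, 20.7% rose and 20.8% fell in HR, and 22.7% rose and 22% fell in LR. The 2 that rose were SPP1 (2.19 in HR and 1.55 in LR), which codes for osteopontin, and the adhesive glycoprotein THBS1 (1.15 and 1.27). The basement membrane proteins NID1 (-2.25 and -2.21) and COL4A1 (-1.75 and -1.11) and the fibrillin FBN1 (-1.76 and -1.72) fell in both. Between HR and LR none of these genes passed at either day. Over the tested stroma markers, some of which stand on both lists, 1 rose and 3 fell in HR and 1 rose and 2 fell in LR, and the part of stromal cells in the ligand values was not tested. Of these markers, MMP2 and COL1A1 were tested through day 3 groups alone.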

How the data were processed

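For 12 GeneChip Bovine Genome Arrays the authors deposited log2 signals between 0 and 14.07, given to 2 decimals. They had scaled each scan globally in GCOS 1.1.1 and computed the signals by PLIER in Affymetrix Expression Console, and no further normalization was applied here. The MAS5 present calls were not used here, and were replaced by a requirement that all 3 pools of some group exceed the median of their arrays, beside the study's limit of 0.2 on the standard deviation. This left 7,339 of 24,016 probe sets, after 112 control entries were set aside. The platform annotation gave 13,292 probe sets 1 symbol, 86 several and 10,638 none, and only the first kind was named.

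A linear model with a mean for each group was fitted to the 12 arrays together (limma 3.58.1, R 4.3.3, lmFit and eBayes), in place of the study's mixed model in JMP Genomics. Benjamini-Hochberg adjustment ran over the 7,339 probe sets within each of 5 comparisons (day within HR and LR, receptivity within days 7 and 3, and their interaction). Intervals are 95% confidence intervals of that fit, which was checked on simulated data. The number of arrays limits the precision.

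A gene was represented by its probe set with the highest mean signal. Pool values are given for up to 4 genes per comparison and direction, those with the largest difference among called genes without overlap or, where none was called, the 3 with the lowest p, for the 3 lowest interaction p, and for members named in the study's text. TSPAN15, CD81, ITGAE, ITGB3, TSPAN1 and the steady members were described after their values were seen. The members, lists and markers were chosen with earlier results of these data known. Pools carry numbers 1 to 3 in every group. No source says what a number stands for. Deviations of same-numbered pools correlated at 0.14, 0.15 and 0.44 between HR7 and LR7 and at 0.20, 0.21 and 0.46 between LR7 and LR3. Between HR3 and LR3 they correlated at -0.08, -0.03 and -0.47. HR and LR pools come from different heifers and no source pairs the days, so the number was not taken as a pairing. A fit with it as a block was an alternative only. Other alternatives were no or a stricter presence filter, no limit on spread, quantile normalization, centring on array medians, 16 added to the signal, no moderation, an intensity trend, only the compared groups, gene means and leaving out each pool. Figures were drawn in Python 3.11.15 with matplotlib.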

Additional observations from a re-analysis of the deposited data

How the results depend on the processing

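None of the members passed between HR and LR at either day or in the interaction under any alternative, and the counts at an unadjusted p under 0.05 were 2 to 6 at day 7, 3 to 8 at day 3 and 1 to 6 for the interaction when a pool was left out. The day counts were 11 to 14 in HR and 9 to 15 in LR when a pool was left out, with 9 in LR without LR7 pool 1 or LR3 pool 1, and 11 of the 14 HR calls and 8 of the 15 LR calls held without any 1 pool. In LR, 9 passed without the presence filter, where 78 member probe sets were tested, and 9 with only the compared groups in the fit, and under both the calls of CAV1, the second CAV2 probe set, TSPAN13, ITGA7, CD81 and ITGAE were lost. In an ordinary linear model ITGA7 and CD81 were lost in LR and ITGB2 in both groups, and after quantile normalization CD81 in LR and ITGAE in HR. TSPAN3 passed in LR after quantile normalization. The BCAR3 probe set tested through HR7 alone was added to the HR count after quantile normalization and after centring, and is given as values only. The cause was not tested. The split in HR, 6 higher and 8 lower, was 7 and 7 after quantile normalization and 8 and 6 after centring on array medians. Adding the pool number as a replicate block left 0 calls at day 7, 0 at day 3, 14 in HR, 15 in LR and 0 for the interaction. It changed no member call in LR, between HR and LR at either day or in the interaction. In HR, TSPAN15 was lost and the count took in the BCAR3 probe set (0.46), given as values only, for 7 higher and 7 lower. Same-numbered pools of HR7 and HR3 correlated at 0.12, 0.00 and -0.06. Differences that turned in sign were small. Those of VCL were -0.055 at day 3 and -0.0083 between days in LR with gene means. When a pool was left out, CAPNS1 at day 7 ranged between -0.08167 and 0.013 (without LR7 pool 1), CAV1 at day 3 between -0.13 (without LR3 pool 1) and 0.23, with -0.05 without HR3 pool 3, ZYX between days in HR between -0.0067 (without HR3 pool 3) and 0.33, and TSPAN32 at day 3 between -0.41 and 0.0067 (without LR3 pool 3). With 3 pools per group, small differences are hard to call, and 43 of the 100 member probe sets lay below the median of every array, where signal over background is not known.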
